A study of Mus musculus with 10 samples.

Results

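The 9 genes described here encode the enzymes that store vitamin A as retinyl ester or oxidise it towards retinoic acid: *Lrat*, *Bco1*, *Dhrs3*, *Rdh10*, *Rdh11*, *Rdh13*, *Aldh1a1*, *Aldh1a2* and *Aldh1a3*. They were picked by gene symbol among the 25233 entries with a symbol, by a rule that uses no measured value although earlier results of these data were known when the set was drawn up, and all 9 had an entry. RNA-seq was performed on 10 libraries of hepatic stellate cells (HSCs) sorted from the livers of male C57BL/6J mice. The 5 libraries of hypertrophied HSCs (hypHSCs) came from mice fed the choline-deficient, L-amino acid-defined, high-fat diet (CDAHFD), which produces steatohepatitis with fibrosis, and the comparison asked how the transcripts of these cells differ from those of quiescent HSCs (qHSCs), with 5 libraries from mice on standard diet. hypHSC 1 and 2 came after 13 weeks of diet at 19 weeks of age, and hypHSC 3, 4 and 5 after 12 weeks of diet at 18 weeks of age. qHSC 1, 2 and 5 came from mice 36 weeks old and qHSC 3 and 4 from mice 34 weeks old. By the study's methods, the CDAHFD also held less vitamin A than the standard diet. No transgene or Cre was used. Diet, its vitamin A content, age, the digestion of the liver and the fluorescence gate of the sort all differed between the groups. The study also added antibiotics to most buffers for CDAHFD livers only. The parts of all these in any difference below cannot be told apart. The preparations were chosen for sequencing by RNA quality and the labels do not name the mouse behind each library, so that n counts preparations and p-values measure the spread between preparations.

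HSCs hold most of the vitamin A of the body in cytoplasmic droplets of retinyl ester. Retinol is esterified for storage, or it is oxidised reversibly to retinal and then irreversibly to retinoic acid, which acts through nuclear receptors. Loss of the retinyl ester droplets is a textbook feature of HSCs that turn into matrix-producing myofibroblasts. The study describes hypHSCs, in contrast, as cells with an excess of retinoid droplets, and sorted them by the green fluorescence of these droplets. Among the 9 genes, *Lrat* makes the ester, *Bco1* makes retinal from beta-carotene, *Dhrs3*, *Rdh10*, *Rdh11* and *Rdh13* interconvert retinol and retinal, and the 3 *Aldh1a* genes make retinoic acid.

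The labelled cell type was checked against marker lists. All 13 markers of quiescent HSCs had reads in each qHSC library and 11 to 13 had reads in the hypHSC libraries, with normalized counts that summed to 33659 to 64663 per hypHSC library against 1303522 to 2144299 per qHSC library, and all 13 were lower in hypHSCs. All 12 macrophage markers were higher in hypHSCs, with sums of 1032116 to 1447586 against 5971 to 103681 in qHSCs. Of 6 cholangiocyte markers, 4 were tested and all 4 were higher in hypHSCs, where the list summed to 161426 to 336685 against 30.8 to 387 in qHSCs, and nearly all of that sum was *Spp1* (160907 to 335921 in hypHSCs), a gene that macrophages also express. Portal fibroblast markers had 4 of 6 tested higher, with sums of 295 to 2800 in hypHSCs and 298.97 to 597 in qHSCs. Dendritic cell markers had 3 higher and 1 lower of 6 tested (819 to 4107 and 426 to 855), and sinusoidal endothelial markers 2 higher and 2 lower of 7 tested (691 to 1199.9 and 1048 to 2339). The sums of 10 hepatocyte markers overlapped (hypHSCs, 14687 to 239070, and qHSCs, 29341 to 118581). The 10 libraries held 30534719 to 47317028 reads on genes with a symbol, 3 reads correspond to 2.25 to 4.54 normalized counts, and mitochondrial entries took 2.21% to 12.8% of the reads of hypHSC libraries (the highest in hypHSC 1) and 1.25% to 1.61% of those of qHSC libraries. In bulk RNA of this kind, fewer cells of a type and less RNA per cell cannot be told apart.

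Promoter sequence is shown for 3 of the genes that were far lower in hypHSCs, so that the regions in front of a storage gene, a carotenoid gene and a retinoic acid gene can be read side by side. RefSeq start sites were matched for 6 of the 9 genes, with 10 start sites in all, and none for *Rdh10*, *Rdh13* and *Aldh1a3*. Each sequence is the 250 bases before the start site, from the RefSeq promoter table of build GRCm38.p6, placed on GRCm39 by its single exact match. *Lrat* lies at chr3:82811282-82811531 on the minus strand, *Bco1* at chr8:117822354-117822603 on the plus strand and *Aldh1a1*, at the second of its 2 listed start sites, at chr19:20579082-20579331 on the plus strand. Lower case is the plain sequence, 5′ to 3′ in the direction of transcription, and capitals mark the matches described below.
Lrat promoter: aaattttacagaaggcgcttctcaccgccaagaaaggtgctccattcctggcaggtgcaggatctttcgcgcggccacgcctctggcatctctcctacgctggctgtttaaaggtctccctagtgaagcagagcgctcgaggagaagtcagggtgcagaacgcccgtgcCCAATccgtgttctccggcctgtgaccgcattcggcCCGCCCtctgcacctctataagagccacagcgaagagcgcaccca
Bco1 promoter: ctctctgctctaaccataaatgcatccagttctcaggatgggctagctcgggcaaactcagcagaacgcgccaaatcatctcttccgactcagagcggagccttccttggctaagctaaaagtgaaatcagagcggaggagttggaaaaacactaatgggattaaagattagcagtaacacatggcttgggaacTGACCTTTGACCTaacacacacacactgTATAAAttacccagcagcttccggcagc
Aldh1a1 promoter: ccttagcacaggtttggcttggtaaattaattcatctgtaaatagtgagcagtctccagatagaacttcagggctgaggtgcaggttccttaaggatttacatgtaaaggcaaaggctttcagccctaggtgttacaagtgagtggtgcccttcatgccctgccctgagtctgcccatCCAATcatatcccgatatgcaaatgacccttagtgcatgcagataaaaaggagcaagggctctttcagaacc

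The windows were searched on both strands for the TATA box (TATAAA), the CCAAT box, the Sp1 motif (GGGCGG) and the nuclear receptor motifs AGGTCA and, as its variant, AGTTCA, and for direct repeats of the last pair with 1, 2 or 5 bases between the copies (DR1, DR2 and DR5). The *Bco1* window held a DR1 as TGACCTTTGACCT, on the minus strand and with its first base 56 bases before the start, which overlaps both of its AGGTCA matches, and TATAAA 28 bases before the start. DR1 was present in 22 of 32851 promoter windows of the same length, or 0.0670%, and TATAAA in 12.4%. The *Lrat* window held CCAAT 81 bases and GGGCGG, as CCGCCC, 45 bases before the start, letters found in 33.8% and 32.7% of all windows. The *Aldh1a1* window held CCAAT at 72 bases. No DR2 or DR5 was in the windows of the 6 genes, and these repeats occurred in 12 and 11 of all windows. The 3 printed windows had a GC content of 59.2%, 48.0% and 46.4% against a median of 52.4%, whereas the window of *Aldh1a2* had 77.6% and 40 CG dinucleotides against a median of 6. A match describes letters, and binding was not measured.

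All 9 genes passed the filter of at least 10 normalized counts in at least 5 libraries. A gene was called when its log2 fold change was at least 1 in size and its adjusted p by limma at most 0.05, over 14630 genes tested. Of the 9 genes, 4 were lower in hypHSCs (*Lrat*, *Bco1*, *Aldh1a1* and *Aldh1a3*), 3 were higher (*Dhrs3*, *Rdh13* and *Aldh1a2*) and 2 were not called (*Rdh10* and *Rdh11*). Over all genes tested, 39.5% were called, 17.8% as higher and 21.7% as lower. The values of hypHSC and qHSC libraries did not overlap for 5 of the 9 genes, against 39.5% of all genes tested. The median log2 fold change was -0.84 over the 9 genes and -0.20 over all genes, and the median size without sign was 3.81 over the 9 genes and 1.02 over all genes. *Aldh1a2* passed the filter mainly through hypHSCs, where all 5 libraries were at 10 or more against 1 qHSC library, and *Aldh1a3* mainly through qHSCs.

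**Figure D1:**
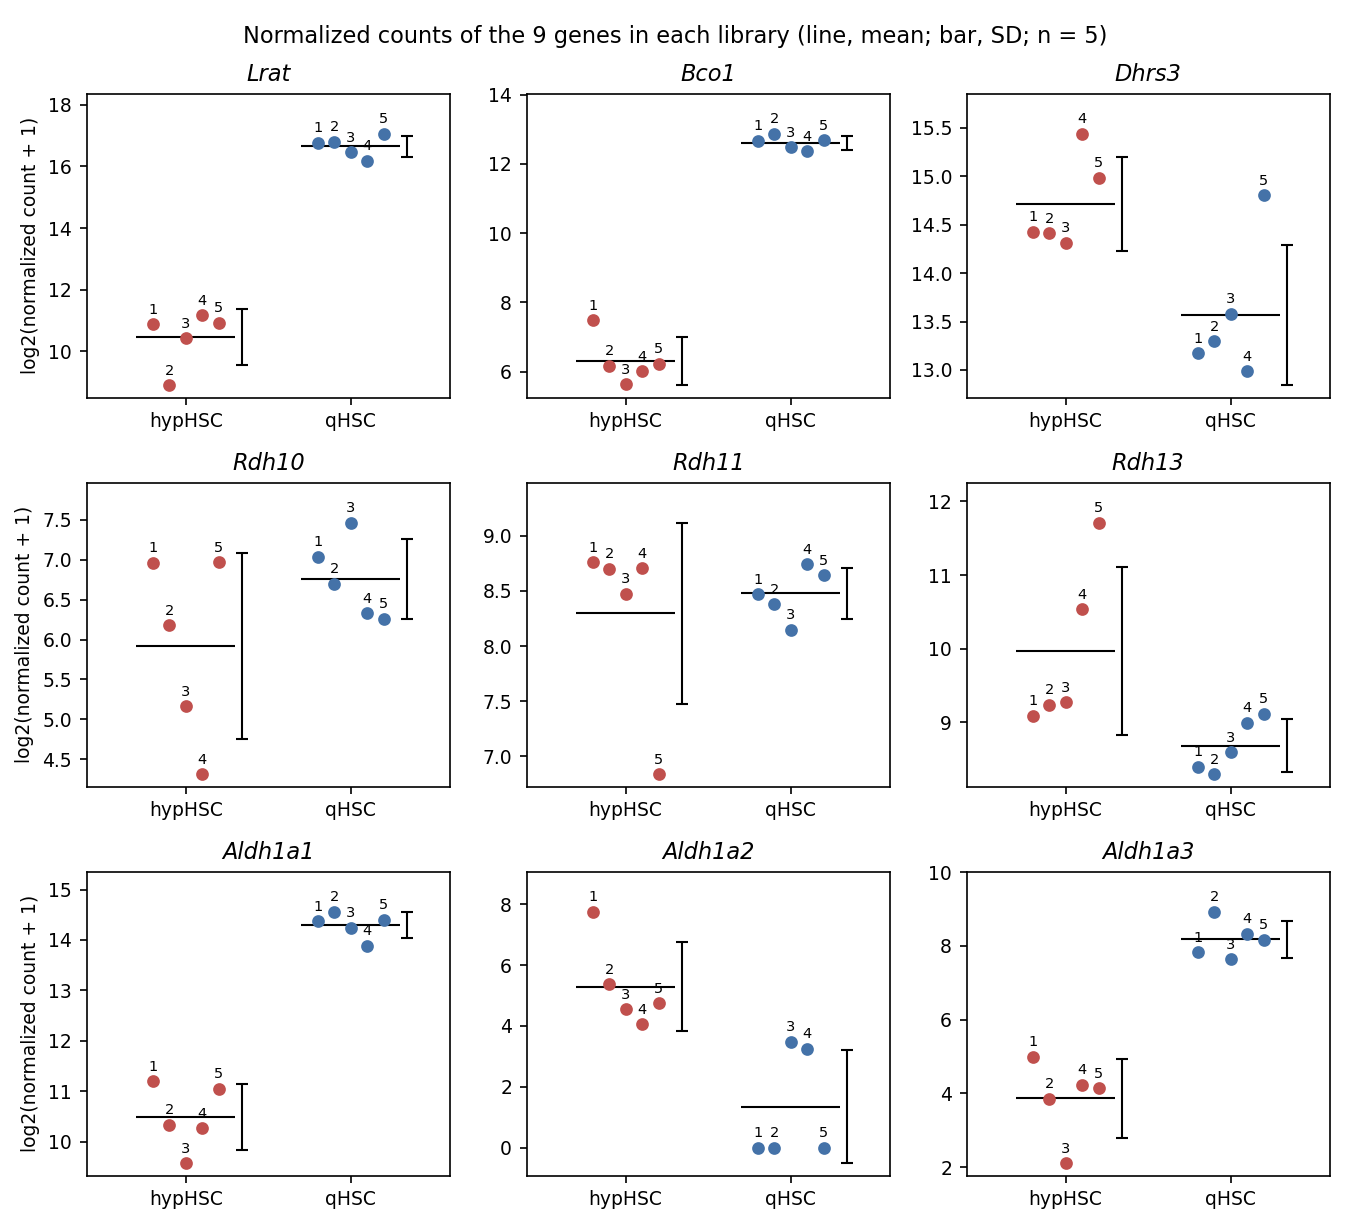
Normalized counts of the 9 genes on a log2 scale after adding 1, with 1 panel per gene, 1 point per library (numbered by replicate), the mean as a line and the SD as a bar (n = 5 per group). *Lrat*, *Bco1*, *Aldh1a1*, *Aldh1a2* and *Aldh1a3* show no overlap between hypHSC and qHSC libraries, and qHSC 5 lies among the hypHSC libraries for *Dhrs3*.

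**Figure D2:**
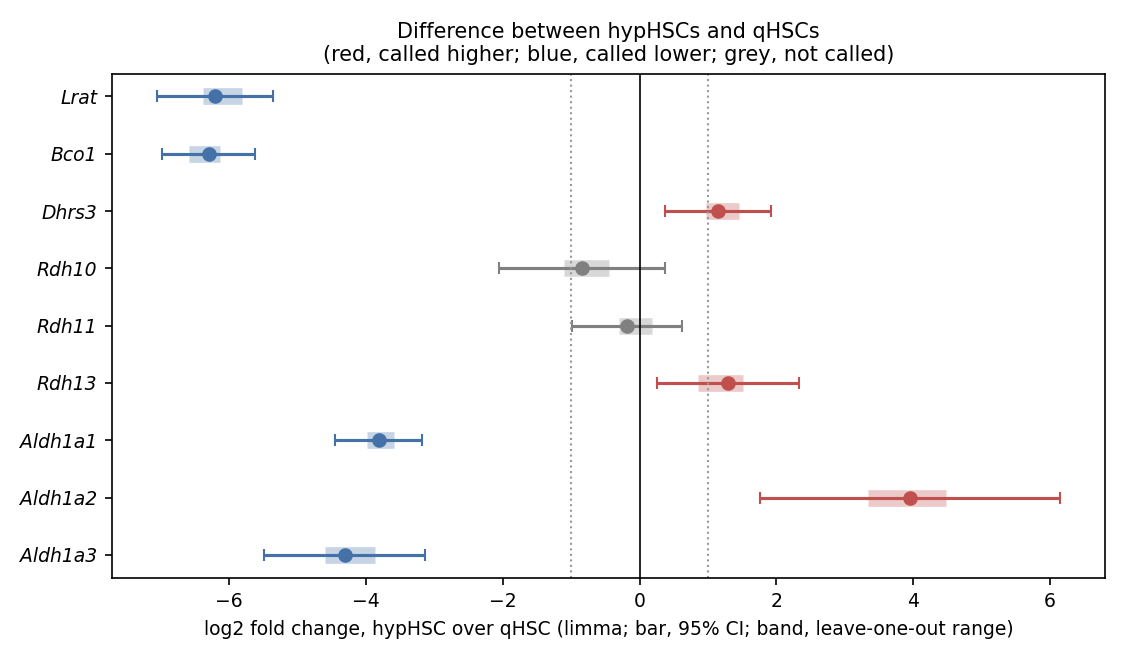
Log2 fold change of each gene in hypHSCs over qHSCs from limma with its 95% confidence interval, and a band for the range when each library was left out in turn. *Bco1* and *Lrat* sit near -6, the intervals of *Rdh10* and *Rdh11* include 0, and those of *Dhrs3* and *Rdh13* reach below the dotted line at 1.

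*Lrat*, lecithin retinol acyltransferase, forms the retinyl ester of the droplets and was the storage gene of the set (chr3:82799887-82811286, minus strand, GRCm39). Its normalized counts were 1873, 476, 1365, 2312 and 1936 in hypHSC 1 to 5, and 112341, 114853, 90181, 74761 and 136938 in qHSC 1 to 5. Each qHSC library stood far above each hypHSC library, and hypHSC 2 was the lowest of the 10. The log2 fold change was -6.20 (SE 0.39, adjusted p = 4.95e-07 by limma), and the exact two-sided permutation test gave p = 0.00794, the smallest that 5 against 5 libraries allow. *Lrat* was still read 460 to 2204 times in hypHSC libraries, well above the floor of 3 reads. An antisense neighbour, *Rbm46os*, overlaps 8.36% of its exon bases, and since the libraries are not stranded their reads cannot be told apart there, but the entry of *Rbm46os* itself reached no more than 123 normalized counts in any library.

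*Bco1*, the beta-carotene oxygenase that cleaves the provitamin into retinal (chr8:117822593-117860459, plus strand), had a difference of like size. Its normalized counts were 179, 71.4, 49.1, 64.0 and 74.1 in hypHSC 1 to 5, and 6483, 7485, 5684, 5268 and 6583 in qHSC 1 to 5. The qHSC libraries were tightly grouped, with a coefficient of variation of 13.7%, and hypHSC 1 was the highest of the hypHSC libraries. hypHSCs differed from qHSCs by a log2 fold change of -6.30 (SE 0.31, adjusted p = 1.07e-07 by limma). The other gene of carotenoid cleavage, *Bco2*, had 72.8 to 132 normalized counts in hypHSCs and 22.1 to 182 in qHSCs and was not called (log2 fold change 1.01, adjusted p = 0.199).

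The genes between retinol and retinal moved less, and not in 1 direction. *Dhrs3*, a short-chain dehydrogenase that reduces retinal back to retinol (chr4:144619397-144654779, plus strand), had normalized counts of 22007, 21822, 20331, 44397 and 32419 in hypHSC 1 to 5, and 9235, 10055, 12245, 8122 and 28652 in qHSC 1 to 5. qHSC 5 lay above 3 of the hypHSC libraries, and the other 4 qHSC libraries lay below all 5. The log2 fold change was 1.15 (SE 0.35, 95% confidence interval 0.37 to 1.92, adjusted p = 0.0191 by limma), and the exact two-sided permutation test gave p = 0.0317. Without qHSC 5 it was 1.46, and without hypHSC 4 it was 0.97 and the call was lost.

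*Rdh13*, a mitochondrial retinal reductase (chr7:4427769-4448656, minus strand), was the other gene of this step that was called higher. Its normalized counts were 543, 604, 618, 1481 and 3353 in hypHSC 1 to 5, and 337, 314, 386, 510.0 and 554 in qHSC 1 to 5. hypHSC 4 and 5 stood apart, whereas hypHSC 1 lay just below qHSC 5. The log2 fold change was 1.29 (SE 0.47, 95% confidence interval 0.25 to 2.32, adjusted p = 0.0418 by limma), and the exact two-sided permutation test gave p = 0.0159. The gene was no longer called when hypHSC 4, hypHSC 5 or any 1 of the 5 qHSC libraries was removed, that is in 7 of 10 such fits. The lowest value was 0.85, without hypHSC 5. In hypHSC 4 and 5, also the highest hypHSC libraries for *Dhrs3*, the summed hepatocyte markers were 94335 and 239070. They were 14687 to 38079 in the other hypHSC libraries, and 118581 in qHSC 1, where *Rdh13* was at 337. The part of hepatocyte RNA in these values was not tested.

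The calls of *Dhrs3* and *Rdh13* also depended on the scaling. Scaled to the same total, their log2 fold changes were 0.79 and 0.93, and scaled on *Hprt*, *Pgk1* and *Actb* they were 0.21 and 0.35, none of them called, although the direction stayed. That last scaling moved the median of all genes from -0.20 to -1.12, and *Hprt* (log2 fold change 1.25) and *Pgk1* (1.44) were themselves called higher in hypHSCs. *Actb* was not called (0.12), but its normalized counts ran from 18213 to 296496 over the hypHSC libraries.

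**Figure D3:**
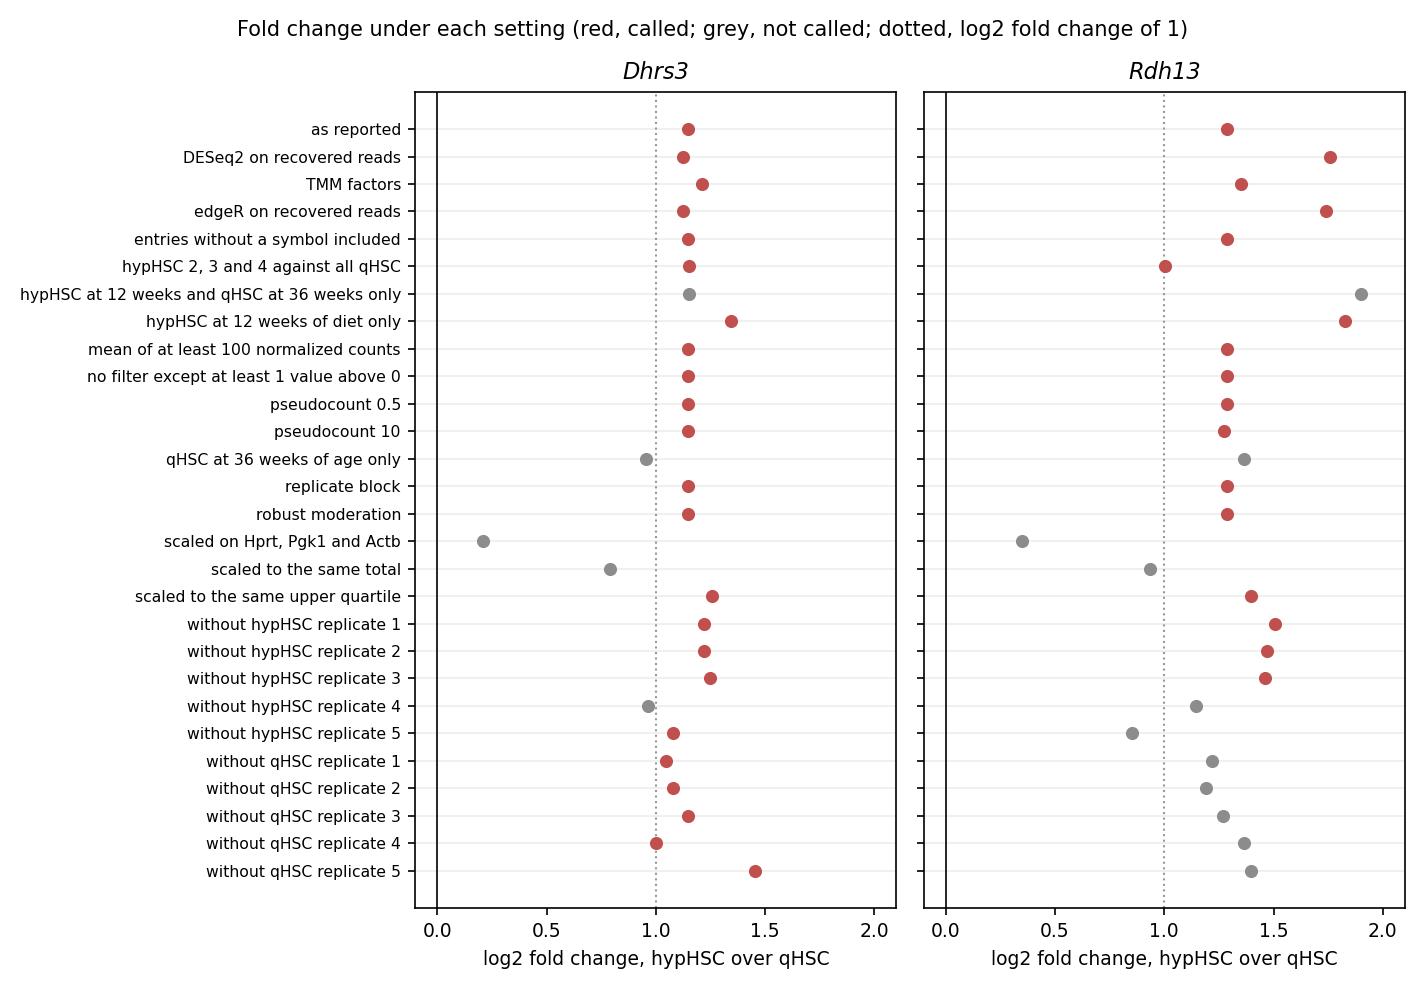
Log2 fold change of *Dhrs3* and *Rdh13* in hypHSCs over qHSCs, with 1 row for each way of processing the values or choosing libraries, in red where the gene was called. The point lies above 0 in each row, and *Rdh13* is grey in each of the 5 rows that leave out a qHSC library.

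*Rdh10*, the main retinol dehydrogenase of the embryo (chr1:16175998-16202774, plus strand), was a gene of low counts. They were 124, 71.4, 34.9, 18.9 and 124 in hypHSC 1 to 5, and 130.3, 103, 176, 79.6 and 75.7 in qHSC 1 to 5. hypHSC 1 and 5 lay within the range of the qHSC libraries, and hypHSC 2, 3 and 4 lay below all 5 of them. This gave a log2 fold change of -0.84 (SE 0.55, 95% confidence interval -2.05 to 0.37, adjusted p = 0.231 by limma) and an exact two-sided permutation p of 0.206.

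*Rdh11*, a retinal reductase of the endoplasmic reticulum (chr12:79221007-79239067, minus strand), had normalized counts of 433, 415, 355, 416 and 113 in hypHSC 1 to 5, and 354, 332, 283, 428 and 399 in qHSC 1 to 5. hypHSC 5 was the lowest of the 10 libraries, and the other 4 hypHSC libraries lay within the range of qHSCs or just above it. Between groups the log2 fold change was -0.18 (SE 0.37, 95% confidence interval -0.99 to 0.62, adjusted p = 0.708 by limma) and 0.18 without hypHSC 5. Another gene, *Gm61068*, overlaps 11.8% of its exon bases, where reads cannot be assigned to either. In the library where *Rdh11* was lowest, hypHSC 5, *Rdh13* was highest.

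The 3 retinal dehydrogenases that make retinoic acid did not move together. *Aldh1a1* (chr19:20469947-20620827, plus strand) had normalized counts of 2339, 1288, 760.1, 1224 and 2119 in hypHSC 1 to 5, and 21217, 24169, 19359.7, 15114 and 21707 in qHSC 1 to 5. The lowest qHSC library was more than 6 times the highest hypHSC library. *Aldh1a1* thus had a log2 fold change of -3.81 (SE 0.29, adjusted p = 2.02e-06 by limma). The entry also carries the symbol *E030003E18Rik*, whose reads cannot be separated from it, and 5.54% of its 59-base stretches also occur in other genes, *Aldh1a7* among them.

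*Aldh1a3* (chr7:66040643-66077227, minus strand) was lower in hypHSCs from a much smaller level. Its normalized counts were 31.0, 13.5, 3.33, 17.8 and 16.6 in hypHSC 1 to 5, from 4 to 23 reads, and 225, 485, 199, 322 and 287 in qHSC 1 to 5. No hypHSC library came near a qHSC library. Its log2 fold change was -4.31 (SE 0.53, adjusted p = 6.53e-05 by limma).

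*Aldh1a2* (chr9:71123071-71203525, plus strand) went the other way. Its normalized counts were 214, 40.4, 22.45, 15.7 and 25.7 in hypHSC 1 to 5, from 15 to 159 reads. In qHSC 1, 2 and 5 there was no read, and qHSC 3 and 4 had 10.2 and 8.56 normalized counts from 13 and 10 reads. hypHSC 1 held most of the signal, and the lowest hypHSC library, with 15 reads, was close to the highest qHSC library. The log2 fold change was 3.95 (SE 0.998, adjusted p = 0.00709 by limma), a size that depends on the added count: it was 4.55 with 0.5 and 1.96 with 10 added in place of 1. Without hypHSC 1 it was 3.33. The gene *Gm3458* overlaps 8.44% of its exon bases and had 0 normalized counts in all libraries.

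*Aldh1a2* is also a gene of mesothelial cells, and 3 of the 4 mesothelial markers tested were called higher in hypHSCs, among 7 on the list. Among them *Krt19* is a cholangiocyte marker too. Their summed normalized counts were 1504, 592, 537, 544 and 847 in hypHSC 1 to 5 and 127 to 232 in qHSCs, so that hypHSC 1 was the highest for the list as for *Aldh1a2*. *Msln* and *Upk3b*, which define these cells, were at 0 to 88.9 and 0 to 33.1 normalized counts in hypHSCs and at 0 to 1.70 in qHSCs. The part of such cells in the counts of *Aldh1a2* was not tested.

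Levels of different genes were compared only per length, in FPKM, the fragments per kilobase of exon scaled to the depth of the library. In qHSCs *Lrat* was the most abundant of the 9, at 599 ± 113 FPKM (SD, n = 5) and rank 46 of the 23200 genes with an exon length, followed by *Dhrs3* (126 ± 70.7), *Aldh1a1* (57.7 ± 9.09), *Bco1* (49.6 ± 6.15), *Rdh11* (2.63 ± 0.36), *Rdh13* (1.84 ± 0.41), *Aldh1a3* (1.62 ± 0.58), *Rdh10* (0.759 ± 0.31) and *Aldh1a2* (0.0258 ± 0.036). The neighbours whose libraries did not overlap in this order were *Lrat* and *Dhrs3*, *Dhrs3* and *Aldh1a1*, *Bco1* and *Rdh11*, and *Rdh10* and *Aldh1a2*. In hypHSCs *Dhrs3* came first at 204 ± 59.8 FPKM and rank 188, and *Lrat* second at 6.99 ± 2.86 FPKM and rank 2883. The remaining order was *Rdh13* (4.27), *Aldh1a1* (3.37), *Rdh11* (2.03), *Bco1* (0.540), *Rdh10* (0.380), *Aldh1a2* (0.334) and *Aldh1a3* (0.0675), and below *Dhrs3* the libraries of each pair of neighbours overlapped. The order depends on how FPKM was computed and on the length used. In the mean FPKM that the study itself printed, *Dhrs3* lay slightly above *Lrat* in qHSCs, the reverse of the order given here. With the canonical transcript in place of all exons, a choice added after seeing the data, *Rdh13* had a mean of 9.66 FPKM in hypHSCs and came before *Lrat*, *Aldh1a2* (0.570) came before *Rdh10* (0.434), and in qHSCs *Rdh13* (4.15) came before *Rdh11* (2.76).

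**Figure D4:**
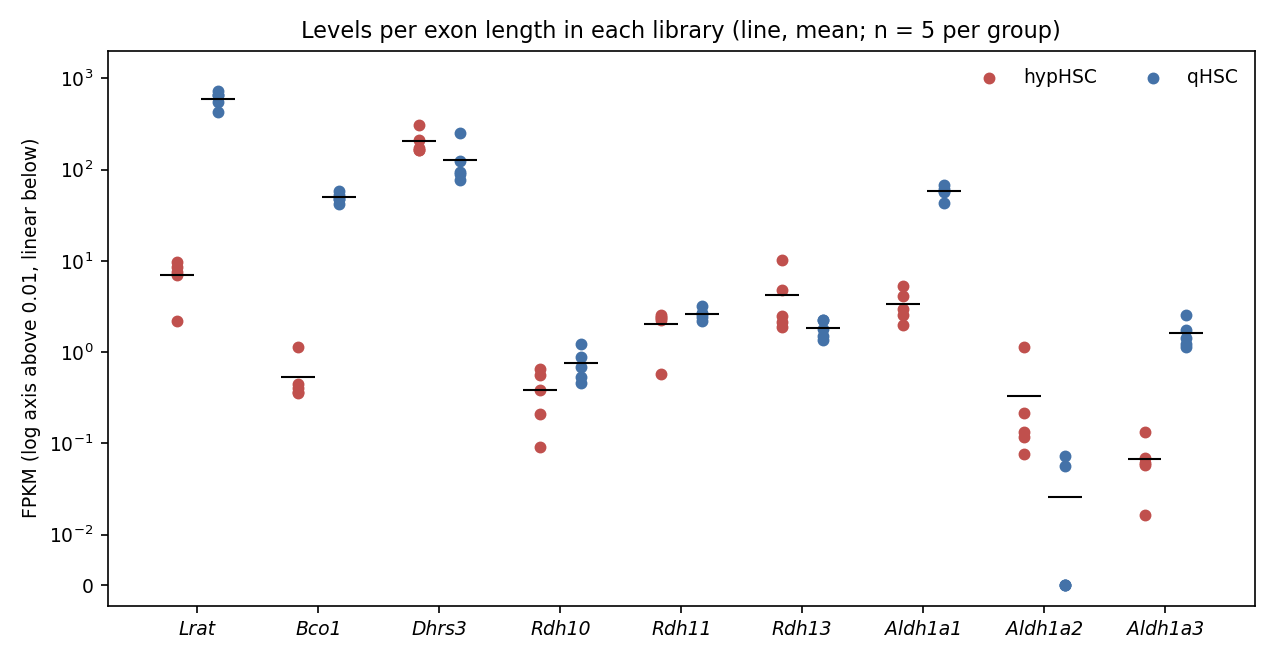
FPKM of the 9 genes, with 1 point per library and the mean as a line (n = 5 per group), on an axis that is logarithmic above 0.01 and linear below. *Dhrs3* lies near the top in both groups, whereas *Lrat*, *Bco1* and *Aldh1a1* are near the top in qHSCs and far lower in hypHSCs.

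The balance between the enzymes that form the ester and return retinal to retinol was also read within each library, where the scaling between libraries drops out. The ratio of *Dhrs3* to *Lrat* in FPKM was 19.4, 75.7, 24.6, 31.7 and 27.7 in hypHSC 1 to 5, and 0.136, 0.145, 0.224, 0.179 and 0.346 in qHSC 1 to 5. qHSC 5, the library with high *Dhrs3*, had the highest ratio of the qHSCs and was still far below hypHSC 1. The study's own mean FPKM put *Dhrs3* above *Lrat* in both groups, slightly in qHSCs and by far in hypHSCs. The level of the qHSC ratios thus depends on the FPKM used. *Dhrs3* made up 94.9% to 97.7% of the summed FPKM of *Dhrs3*, *Rdh10*, *Rdh11* and *Rdh13* in hypHSCs and 92.8% to 97.9% in qHSCs, ranges that overlap.

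Among the 3 *Aldh1a* genes, *Aldh1a1* held most of the signal in all 10 libraries. Its share of their summed FPKM was 80.8%, 91.5%, 92.9%, 94.6% and 95.9% in hypHSC 1 to 5, and 96.0% to 98.0% in qHSCs. *Aldh1a2* made up 17.2% in hypHSC 1 and 2.703% to 6.67% in the other hypHSC libraries, against 0 to 0.126% in qHSCs. The sum of the 3 genes was 2.12 to 6.55 FPKM in hypHSCs and 45.1 to 70.7 FPKM in qHSCs, without overlap. By canonical length the mean share of *Aldh1a1* was 91.5% in hypHSCs and 97.7% in qHSCs.

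The 9 genes were then set beside 63 other genes of retinoid handling, in 7 lists by role. Of these 48 were tested, 6 were higher and 14 lower in hypHSCs and 28 were not called, so that 41.7% were called against 39.5% of all genes. The median log2 fold change of the 48 was -0.67, against -0.20 over all genes. Values are given for the genes called that reached a mean of 100 normalized counts in either group.

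For uptake and binding, 4 genes were tested, of which 1 was called higher, 1 was called lower and 2 were not called. The gene called lower is among those not reported here by name. *Stra6l*, a receptor for retinol-binding protein in liver, was at 871 to 2109 against 7.67 to 80.4 (log2 fold change 5.41, adjusted p = 2.22e-05 by limma). In the carotenoid list, *Cd36*, a scavenger receptor for lipids that macrophages also express, was at 79927 to 183245 in hypHSCs and 3.41 to 687 in qHSCs (log2 fold change 10.05, adjusted p = 1.95e-05 by limma).

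Genes of retinyl ester formation and hydrolysis moved both ways, with 2 higher and 4 lower of 12 tested. *Lpl*, lipoprotein lipase, and *Lipa*, the lysosomal acid lipase, rose by 3.73 and 2.95 on the log2 scale, with 36906 to 84159 and 24552 to 75382 normalized counts in hypHSCs against 3815 to 5321 and 4603 to 7976 in qHSCs. *Pnpla3*, a lipase described as a retinyl ester hydrolase of HSCs, was at 0 to 26.9 against 128 to 202 normalized counts (log2 fold change -4.89, adjusted p = 0.00141 by limma). The carboxylesterases *Ces1e* (log2 fold change -4.12) and *Ces1f* (-4.55) fell as well, but they belong to a cluster of like genes among which reads may be divided, and *Ces1f* overlapped between groups. *Dgat1*, which can also esterify retinol, was not called (log2 fold change -0.81, adjusted p = 0.338 by limma).

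Among 19 other oxidoreductases tested, 2 were higher and 2 lower. *Dhrs9*, which oxidises retinol, was at 18.2 to 309 normalized counts in hypHSCs and 0 to 3.42 in qHSCs (log2 fold change 6.28, adjusted p = 1.30e-04 by limma). *Akr1b8*, an aldo-keto reductase, was at 7084 to 14771 against 664 to 916 (log2 fold change 3.61), while *Rdh5*, the 11-cis-retinol dehydrogenase, and *Aox1*, an aldehyde oxidase, were lower (log2 fold changes -2.49 and -3.26).

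Of the 5 retinoic acid and retinoid X receptors tested, 4 were lower in hypHSCs and *Rxrb* was not called (log2 fold change -2.06, adjusted p = 0.198 by limma). *Rarb*, itself a classical target of retinoic acid, was at 24.9 to 188 normalized counts in hypHSCs and 564 to 1842 in qHSCs (log2 fold change -3.48, SE 0.53, adjusted p = 2.96e-04 by limma). *Rara*, *Rarg* and *Rxra* had log2 fold changes of -2.55, -3.40 and -1.77, and the groups did not overlap for any of the 4. Of 6 genes tested on the list of retinoic acid responsive genes, 4 were lower, among them *Rarb* again, *Hic1* (log2 fold change -4.06) and *Rarres2* (-3.39), and *Tgm2* was not called (-0.73). The 3 *Cyp26* genes, which clear retinoic acid, did not pass the filter, and *Cyp26a1* was at 0 to 2.49 normalized counts in hypHSCs and 6.85 to 74.9 in qHSCs.

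**Figure D5:**
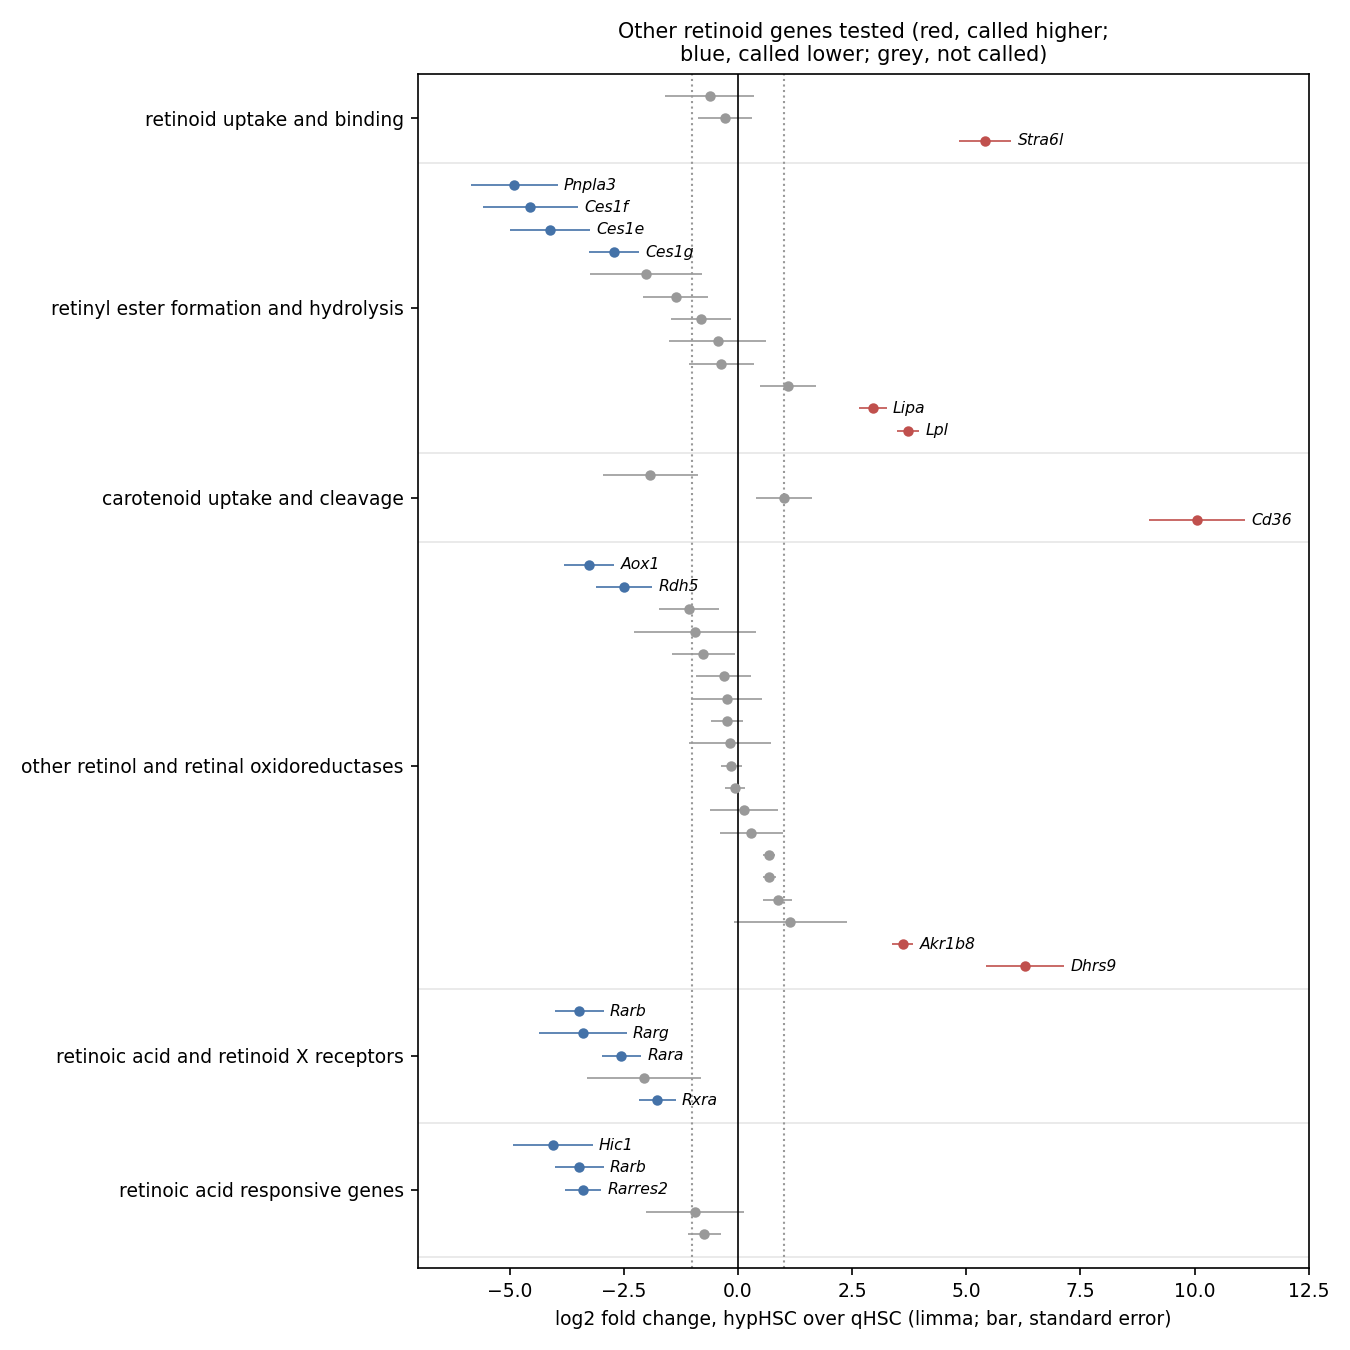
Log2 fold change in hypHSCs over qHSCs with its standard error for the other retinoid genes tested and reported here, grouped by role, with names for those called (*Rarb* stands in both of the lowest groups). Receptors and responsive genes lie to the left, and *Cd36*, *Dhrs9*, *Stra6l*, *Lpl*, *Akr1b8* and *Lipa* are the 6 genes called to the right.

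These differences ran beside the marker sums given above. The part of RNA from macrophages, hepatocytes, cholangiocytes, mesothelial cells, portal fibroblasts or dendritic cells in the genes that were higher was not tested. The part of fewer HSC transcripts in the genes that were lower was not tested either. Within hypHSCs at 12 weeks of diet alone, set against all qHSCs, the 9 genes again gave 3 higher and 4 lower. Against qHSCs at 36 weeks of age alone, *Dhrs3* (log2 fold change 0.96, adjusted p = 0.108 by limma) and *Rdh13* (1.36, adjusted p = 0.104) were not called, and *Lrat*, *Bco1*, *Aldh1a1*, *Aldh1a3* and *Aldh1a2* kept their calls.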

How the data were processed

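RNA-seq of 5 hypHSC and 5 qHSC libraries was analysed. According to the labels and methods, the authors mapped paired 59-base reads to mm39 (GRCm39) with STAR 2.7.5a, counted them per gene of the FAST DB annotation with featureCounts (Subread 1.5.0) from unstranded libraries, and deposited a signal per gene, the normalized count, that is the count divided by the DESeq2 size factor of the library. Whole reads were recovered from the deposited values (100% of values whole, within the rounding to 2 decimals). Of 62322 entries, the 25233 with a symbol were used.

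Values were taken as log2(normalized count + 1), so that fold changes of low genes are understated, and compared with limma 3.58.1 in R 4.3.3, with an intensity trend. The p-values were adjusted by the Benjamini-Hochberg method over all 14630 genes tested. The exact permutation test used all 252 arrangements. edgeR 4.0.16 and DESeq2 1.42.0 on recovered reads, other scalings, filters and added counts, the replicate number as a block and leaving out libraries were alternatives. FPKM used recovered reads and the union of exons of GENCODE M39. The fits were tested on simulated data. The members and lists were chosen with earlier results of these data known. Genes were named when they were members, or listed genes called at a mean of at least 100 normalized counts, or the 2 genes most like each member, with *Hprt*, *Pgk1* and *Actb* as a scale check, while *Bco2*, *Dgat1*, *Rxrb*, *Tgm2*, *Ces1g*, *Cyp26a1*, *Msln*, *Upk3b*, *Krt19*, *Spp1* and the overlapping genes were named after their values were seen. Intervals are from limma and cover the spread between libraries. Some genes of the wider lists are counted but not reported here by name.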

Additional observations from a re-analysis of the deposited data

Results flagged for a closer look

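Each of the 9 genes was examined for a library far from the other 4 of its group, by Dixon's test at the 95% level. The test used normalized counts without the log2 scale, and 4 of the 18 groups were marked. About 1 in 20 would be marked by chance if the values were normally distributed, which skewed counts need not be. The marks depend on the scale, so their number is not read as an excess over chance. *Bco1* was 179.22 normalized counts in hypHSC 1, the highest hypHSC library, and every qHSC library was at 5268 or more. *Aldh1a2* was 214.25 in hypHSC 1 as well, against 15.7 to 40.4 in the other hypHSC libraries. hypHSC 1 also had the largest mitochondrial share, 12.8%, and the highest summed counts of the quiescent HSC markers (64663) and of the mesothelial markers (1504) among the hypHSCs. *Dhrs3* was 28651.94 in qHSC 5, against 8122 to 12245 in the other qHSC libraries. *Rdh11* was 113.44 in hypHSC 5, from 75 reads, against 355 to 433 in the other hypHSC libraries.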

How the results depend on the processing

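Of the 9 genes, *Lrat*, *Bco1*, *Aldh1a1*, *Aldh1a3* and *Aldh1a2* kept their direction and call under each alternative that gave a value, 27 for the first 4 and 26 for *Aldh1a2*. The 4 genes called lower stayed 4 throughout. The number called higher, 3, was 1 with libraries scaled to the same total, 1 when scaled on *Hprt*, *Pgk1* and *Actb*, 1 with qHSCs at 36 weeks of age only and 1 with hypHSCs at 12 weeks of diet against qHSCs at 36 weeks, a choice added after seeing the data, and it ranged from 1 to 3 when 1 library was left out. *Dhrs3* and *Rdh13* lost their calls there. *Rdh11*, at -0.18, ranged from -0.30 to 0.18 when 1 library was left out, positive without hypHSC 5, and was 0.15 with hypHSC 2, 3 and 4 alone against qHSCs, also added after seeing the data, under which *Rdh10* was called at -1.54. Scaled on the 3 reference genes, *Rdh10* (-1.77) and *Rdh11* (-1.12) were called lower. The 14 wider retinoid genes called lower became 9 among genes averaging 100 normalized counts or more, where 33 were tested, and 23 when scaled on the 3 reference genes. *Rdh10* and *Aldh1a2* had no value under the former filter. Across the scalings, *Dhrs3*, *Rdh13*, *Rdh10* and *Rdh11* kept nearly the same distance from the median log2 fold change of all genes tested. Each scaling divides a library by a single factor, so genes well above the floor and that median move together by construction. Beyond this shift and the fewer genes or libraries tested, the cause of these changes was not tested.

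The shared replicate numbers did not pair the libraries: same-numbered libraries correlated in their deviations at 0.008 to 0.129, and 1 of 5 was best matched by its own number. With the number as a replicate block, 3 genes were higher and 4 lower, 6 wider genes were higher and 13 lower, and *Lrat* (-6.20), *Bco1* (-6.30), *Dhrs3* (1.15), *Rdh10* (-0.84), *Rdh11* (-0.18), *Rdh13* (1.29), *Aldh1a1* (-3.81), *Aldh1a2* (3.95) and *Aldh1a3* (-4.31) kept their calls or lack of one.

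Depth limits *Aldh1a2* in qHSCs and *Aldh1a3* in hypHSCs, which rest on 0 to 13 and 4 to 23 reads a library. With 5 libraries a group the exact test cannot go below 0.00794.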

Other observations

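The genes whose log2 values followed each retinoid gene most closely over the 10 libraries were looked up among 10792 tested genes that averaged 100 normalized counts or more. These correlations are a description, since both groups enter and the libraries share depth and group differences. *Lrat* was followed by *Meis1* (Pearson r = 0.996) and *Zmynd11* (0.994), *Bco1* by *Ms4a4d* (0.999) and *Pde1a* (0.998), *Aldh1a1* by *C1qtnf2* and *Mustn1* (0.996 and 0.995), and *Aldh1a3* by *Ttc26* (0.987) and *Mesd* (0.986). All of these 8 genes were lower in hypHSCs, with log2 fold changes from -5.38 for *Ms4a4d* to -1.20 for *Mesd*. That direction followed from the choice, since they were picked by correlation over both groups with genes called lower. *Dhrs3* was nearest to *Phb2* (0.961) and *Mrpl19* (0.933), and *Rdh13* to *Sdhb* (0.989) and *Cdk6* (0.989). *Sdhb*, *Phb2* and *Mrpl19* encode mitochondrial proteins, respectively a subunit of succinate dehydrogenase, a prohibitin and a ribosomal protein. The share of genes for mitochondrial proteins among the 10792 was not counted. *Rdh11* was nearest to *Sumf2* (0.988) and *E2f4* (0.9695), *Rdh10* to *Pierce2* (0.927) and *Gpr180* (0.921), and *Aldh1a2* to *Snrnp35* (0.938) and *Plgrkt* (0.933).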
